A study of Homo sapiens with 9 samples.

Results

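ETS family transcription factors were followed in human leukemia cells in which the RNA helicase DDX41 was knocked down. The members ETS1, ETS2, FLI1, ELF1, ELF2, ELF4, ETV6, GABPA, ELK3 and ELK4 were taken by gene symbol from the deposited count table, as genes of the ETS family outside SPI1, so that 10 of 30017 genes were described. The study examined the loss of DDX41 in blood cells, and it listed ETS1 and ETS2 with stress genes on these same samples, so the direction of those genes is not independent evidence for that choice. RNA-seq was performed on MOLM13, an established acute monocytic leukemia line. The sh-Control group carried a control hairpin in a pLKO-GFP lentiviral vector, and the groups shDDX41 #1 and shDDX41 #2 each carried a different hairpin against DDX41 in that vector. In all 3 groups the virus was packaged in 293T cells and GFP-positive cells were collected by sorting on day 4. Each group held 3 libraries, lettered A, B and D. The labels do not say that these came from separate cultures, so p-values measure only the spread between these libraries, which may be technical. All values come from 1 cell line with a lowered, not deleted, DDX41 transcript, and in bulk RNA fewer cells expressing a gene and less RNA per cell cannot be told apart.

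ETS proteins share a winged-helix DNA-binding domain that recognises a GGAA core flanked by bases that differ between members. ETS1, ETS2, FLI1, GABPA, ELF1, ELF2 and ELF4 are known mainly as activators, ETV6 is a repressor, and ELK3 and ELK4 are ternary complex factors, which bind DNA together with serum response factor (SRF) and are switched by ERK phosphorylation. In blood cells the family is known for its part in stem cell maintenance (ETV6, FLI1), in the platelet lineage (FLI1), in lymphoid cells (ETS1, ELF4) and in monocytes (SPI1).

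The bases before the annotated starts of 3 members are shown because ELK3 had the largest change of the 10 genes, ELK4 was the member that fell with shDDX41 #2, and ELK4 and GABPA were the members with an ETS site there. The sequences are from RefSeq on GRCh38.p14, on the strand of each gene. Promoter entries were matched for 8 of the 10 members (15 entries), and ETS1 and FLI1 were not matched. The ETS site CCGGAAGT was searched on both strands of the 250 bases before each start, and it is marked in capitals. It was chosen after the values were seen. For ELK3 (chr12:96194125-96194374, plus strand) and ELK4 (chr1:205632012-205632261, minus strand) the 250 bases are given, and for GABPA, whose window overlaps annotated exons, 30 bases around the site (chr21:25734894-25734923, plus strand).
ELK3: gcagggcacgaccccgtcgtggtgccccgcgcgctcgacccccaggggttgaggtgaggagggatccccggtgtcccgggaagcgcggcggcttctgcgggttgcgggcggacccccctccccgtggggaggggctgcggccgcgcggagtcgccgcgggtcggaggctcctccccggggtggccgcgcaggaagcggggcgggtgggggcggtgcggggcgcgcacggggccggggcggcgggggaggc
ELK4: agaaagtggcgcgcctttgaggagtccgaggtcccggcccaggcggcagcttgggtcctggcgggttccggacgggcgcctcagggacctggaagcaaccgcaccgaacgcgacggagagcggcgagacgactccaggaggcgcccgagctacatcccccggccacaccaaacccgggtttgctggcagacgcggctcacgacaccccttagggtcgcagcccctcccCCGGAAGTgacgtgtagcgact
GABPA: acctccgctctACTTCCGGccctggctccg
The site began 22 bases before the ELK4 start, and it lay 67 bases before the GABPA start on the opposite strand. This ELK4 start lies outside the ELK4 gene as annotated in GENCODE v29 (chr1:205597556-205631962). The bases after it were not found in the GENCODE transcripts of ELK4, so the distance holds for the RefSeq start only. Among the 15 entries of the members 2 held the site, while 3.42% of all 35116 entries did. The first ELK3 entry does not hold these letters in this window. A match of letters is a description of sequence, and binding was not measured here.

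Total counts ranged from 16385238 to 20510032 per library, and 12712 of 30017 genes (42.3%) passed the filter on low counts, among them all 10 members. DDX41, the targeted gene, was at 113 to 117 CPM (read counts scaled to a common library total) in sh-Control, at 9.95 to 12.9 CPM in shDDX41 #1 and at 38.9 to 42.5 CPM in shDDX41 #2, so the labels were borne out and the remaining transcript was 10.2% and 35.2% of the control mean. Library D of shDDX41 #1 stood apart from its partners, with a chi-square per degree of freedom over genes of 13.4 and 14.6 against A and B, where A and B gave 2.50 and the pairs of the other groups 2.18 to 7.95. It was the lowest library of its group for 7 of the 10 members. Each of the 10 myeloid and monocytic markers had counts in at least 1 library, CD14 reaching only 0.182 CPM, and they summed to 2089 to 2154 CPM in sh-Control, 2157 to 2190 CPM in shDDX41 #1 and 3013 to 3044 CPM in shDDX41 #2. The sums of erythroid, megakaryocytic, T cell and B cell markers stayed at or below 2.18 CPM in every library, with HBB, PF4, CD3G and MS4A1 at 0 throughout, and epithelial or kidney cell markers summed to 14.7 to 19.4 CPM. The higher myeloid sum of shDDX41 #2 came mostly from LYZ, at 1818 CPM against 931 CPM in sh-Control. MPO and ITGAM were called higher too, and the other 6 tested markers were not called (33.3% called, against 25% of all genes). The similar sum of shDDX41 #1 held changes in both directions, with 55.6% of 9 tested markers called, against 47.8% of all genes. CD33, FLT3 and CD4 were higher, while CSF1R went from 22.1 to 12.1 CPM and FCGR1A from 30.4 to 18.5 CPM. The part of these genes in the results was not tested.

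Expressed per length of annotated exons, ELF1 was by far the most abundant of the 10 members in sh-Control cells, at 111 ± 6.33 CPM per kb (SD, n = 3). ELF4 followed at 24.8 ± 3.18 CPM per kb, and FLI1, ETS2 and ELF2 lay close together at 19.8, 19.3 and 18.6 CPM per kb. ETV6 at 12.4 and GABPA at 11.8 CPM per kb came next, then ELK3 at 4.61 and ELK4 at 4.22 CPM per kb, and ETS1 was the lowest member at 1.85 ± 0.312 CPM per kb. In this order the library values of neighbours overlapped for FLI1 and ETS2, ETS2 and ELF2, ETV6 and GABPA, and ELK3 and ELK4, and the other neighbours did not overlap. Within the 19 ETS family genes that passed the filter, ELF1 made up 25.2% of the summed CPM per kb in sh-Control, 25.1% in shDDX41 #1 and 26.5% in shDDX41 #2, and only SPI1, at 27.6%, 28.4% and 26.9%, was higher. In shDDX41 #1 ELK3 fell below ELK4, at 1.17 against 4.01 CPM per kb, with no overlap between the libraries of both genes. ELF4, which ranked second of the 10 members in sh-Control and shDDX41 #2, ranked behind FLI1 and ETS2 in shDDX41 #1. There its library values overlapped those of FLI1, ETS2 and ELF2.

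**Figure D1:**
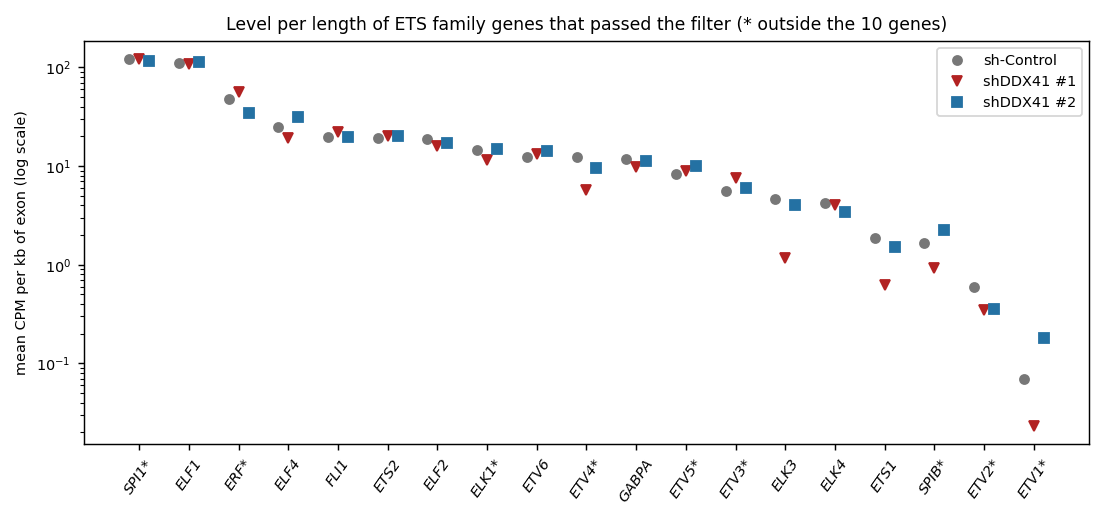
Mean level of the 19 ETS family genes that passed the filter, in CPM per kb of annotated exon on a log axis, for sh-Control (grey circles), shDDX41 #1 (red triangles) and shDDX41 #2 (blue squares), with genes outside the 10 members starred. SPI1 and ELF1 stand above all others in every group, and among the members ELK3 (1.17 against 4.61) and ETS1 (0.627 against 1.85) stand lowest against sh-Control in shDDX41 #1.

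The summed CPM of the 10 members, to which ELF1 contributes most, was 923 to 991 in sh-Control, 829 to 939 in shDDX41 #1 and 982 to 1016 in shDDX41 #2. The libraries of shDDX41 #1 and sh-Control overlapped in this sum.

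In the comparison of shDDX41 #1 with sh-Control, which asks what the stronger of both knockdowns did to the family, ELK3 and ETS1 fell steeply and GABPA, ELF4 and ELF2 fell by less. No member rose. Thus 5 of 10 members were called at an adjusted p under 0.05, against 47.8% of all tested genes (23.7% higher and 24.1% lower), and the CPM of the groups did not overlap for 4 members, against 53.1% of all genes. The share of members called was therefore near that of all genes. The median log2 fold change was -0.14 over the members and 0.01 over all tested genes. With upper quartile factors 2 of 6 called members were higher, namely ETV6 and FLI1, so the absence of rises depends on the scaling.

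ELK3, which encodes a ternary complex factor known as a repressor until it is phosphorylated, lies at chr12:96194382-96269835 (GRCh38, GENCODE v29). Its level was 20.3, 18.3 and 19.5 CPM in sh-Control A, B and D, and 4.52, 5.45 and 4.73 CPM in shDDX41 #1 A, B and D. All 3 libraries with this hairpin lay far below all 3 controls, and library D lay between its partners. ELK3 fell by 1.98 on the log2 scale (SE 0.119, edgeR quasi-likelihood, adjusted p = 9.9e-09), to 25.3% of the control mean, and 0.574% of tested genes had a larger absolute change. ELK3 had 75 to 371 counts per library, and its exons share 209 bases with those of an antisense gene that was not analysed here.

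ETS1, the founding member of the family and an activator in lymphoid and endothelial cells, lies at chr11:128458761-128587558. It was at 12.2, 9.69 and 8.90 CPM in sh-Control and at 3.80, 4.07 and 2.55 CPM in shDDX41 #1, with the lowest control far above the highest knockdown library. ETS1 fell by 1.56 on the log2 scale (SE 0.188, edgeR adjusted p = 9.3e-06), to 33.8% of the control mean. Without library D of shDDX41 #1, which held the lowest value, the fall was 1.37 on the log2 scale, and without control A, which held the highest, it was 1.42. ETS1 had the fewest counts of the members, 42 to 220 per library, and the largest relative spread within groups, with a coefficient of variation of 16.9% in sh-Control, 23.4% in shDDX41 #1 and 15.2% in shDDX41 #2.

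ETS2, the closest relative of ETS1 and like it a target of ERK, lies at chr21:38805307-38824955 and did not follow it. It was at 79.8, 75.3 and 80.8 CPM in sh-Control, at 81.7, 86.1 and 77.5 CPM in shDDX41 #1 and at 85.3, 82.5 and 79.5 CPM in shDDX41 #2. The libraries of all 3 groups overlapped. The log2 fold change was 0.06 with shDDX41 #1 (95% interval -0.08 to 0.20, edgeR adjusted p = 0.504) and 0.07 with shDDX41 #2 (95% interval -0.07 to 0.21, edgeR adjusted p = 0.483), and both intervals exclude a change of the size that ETS1 showed with shDDX41 #1.

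GABPA, the DNA-binding subunit of GA-binding protein, which drives genes of mitochondrial function, lies at chr21:25734570-25772460. It was at 60.7, 66.2 and 61.9 CPM in sh-Control and at 52.9, 51.4 and 51.9 CPM in shDDX41 #1. The groups did not overlap, and the spread within shDDX41 #1 was 1.41% of its mean. GABPA fell by 0.27 on the log2 scale (SE 0.0627, edgeR adjusted p = 0.00227), to 82.7% of the control mean. The gene shares 413 exon bases with ATP5PF on the opposite strand, listed in the table as ATP5J, for which the log2 fold change was -0.12 (edgeR adjusted p = 0.190). Whether reads were counted by strand is not stated, so reads in the shared bases may not be assigned with certainty.

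ELF2 and ELF4 belong to the ELF branch of the family, ELF4 being known for restraining the division of T cells and supporting natural killer cells. ELF2 (chr4:139028112-139177218) was at 79.4, 86.8 and 80.4 CPM in sh-Control and at 69.1, 74.2 and 69.7 CPM in shDDX41 #1, with no overlap, and it fell by 0.21 on the log2 scale (SE 0.0684, edgeR adjusted p = 0.0195). ELF4 (chrX:130064874-130110716) was at 115, 115 and 91.2 CPM in sh-Control and at 91.3, 90.8 and 68.3 CPM in shDDX41 #1. Library D was the lowest in both groups, and control D lay within the range of the knockdown libraries. ELF4 fell by 0.36 on the log2 scale (SE 0.108, edgeR adjusted p = 0.0130), and by 0.22 without library D of shDDX41 #1. Both calls are weak, since ELF4 was no longer called without control A (edgeR adjusted p = 0.0593) or control B (edgeR adjusted p = 0.0660), and ELF2 was not without control B (edgeR adjusted p = 0.0899), without shDDX41 #1 A (edgeR adjusted p = 0.0721) or with upper quartile factors (edgeR adjusted p = 0.111).

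Of the members that were not called with shDDX41 #1, FLI1 (chr11:128686535-128813267), a regulator of megakaryocytes, was at 90.8, 91.5 and 86.4 CPM in sh-Control and at 101, 106 and 91.2 CPM in shDDX41 #1. Libraries A and B were above every control and library D was not. Its exons share 167 bases with a noncoding gene on the opposite strand that was not analysed here. Its log2 fold change was 0.15 (95% interval -3.5e-04 to 0.29, edgeR adjusted p = 0.0919), and without library D of shDDX41 #1 it was called higher at 0.21 (edgeR adjusted p = 0.0096). ETV6 (chr12:11649854-11895402), a repressor needed by blood stem cells, behaved alike, with 72.6, 78.3 and 72.3 CPM in sh-Control and 85.1, 81.2 and 72.7 CPM in shDDX41 #1, a log2 fold change of 0.10 (edgeR adjusted p = 0.258) and 0.17 without library D (edgeR adjusted p = 0.032). ELF1 (chr13:40932028-41061440), an activator found across blood lineages, was at 418, 392 and 373 CPM in sh-Control and at 403, 389 and 352 CPM in shDDX41 #1, with a log2 fold change of -0.05 (95% interval -0.20 to 0.10). ELK4 (chr1:205597556-205631962), the other ternary complex factor among the members, was at 46.9, 46.2 and 38.6 CPM in shDDX41 #1, within reach of the controls, with a log2 fold change of -0.07 (95% interval -0.26 to 0.11). Without library D of shDDX41 #1 the count of called members was 7, where 6256 of all 12902 tested genes were called. Without control B it was 3, where 5368 of all 12928 tested genes were called.

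**Figure D2:**
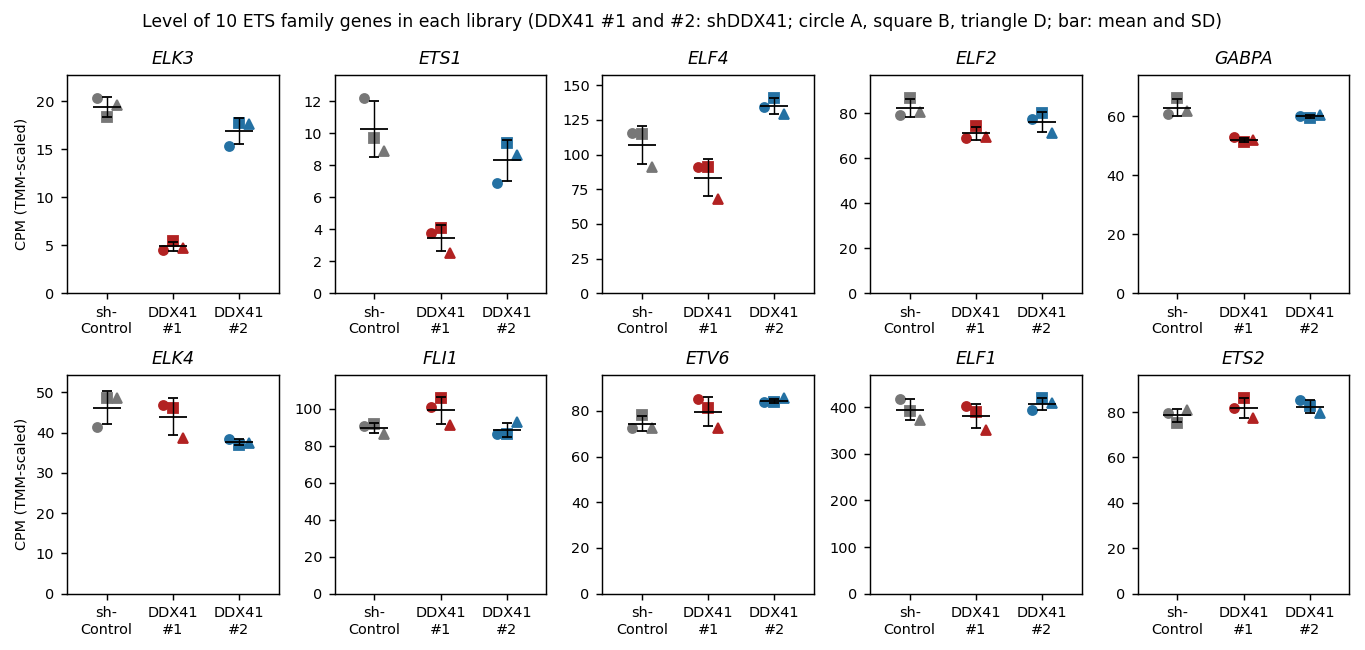
CPM of the 10 members in each of the 9 libraries, with a linear axis from 0 for each gene, sh-Control in grey, shDDX41 #1 in red and shDDX41 #2 in blue, and the black bars giving the mean and SD of 3 libraries. ELK3 and ETS1 are separated in shDDX41 #1 from both other groups, ELF4 is highest in shDDX41 #2, and ETS2 and ELF1 overlap in all groups.

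The comparison of shDDX41 #2 with sh-Control asks the same of the weaker knockdown, and it uses the same 3 control libraries, so the results of both hairpins are not independent. ELF4 rose and ELK4 fell with this hairpin, and the other 8 members were not called. Thus 2 of 10 members were called, against 25% of all tested genes (11.6% higher and 13.4% lower), and the groups did not overlap for 5 members, against 43.8% of all genes. The median log2 fold change was -0.04 over the members and -0.01 over all tested genes. With upper quartile factors 2 of 3 called members were higher, and with library size only 0 of 1.

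ELF4 was at 134, 141 and 129 CPM in shDDX41 #2 A, B and D, all above the 3 controls. It rose by 0.33 on the log2 scale (SE 0.107, edgeR adjusted p = 0.0327), to 126% of the control mean. ELK4 was at 41.4, 48.5 and 48.5 CPM in sh-Control and at 38.4, 36.9 and 37.3 CPM in shDDX41 #2, again with no overlap, and fell by 0.30 on the log2 scale (SE 0.0875, edgeR adjusted p = 0.0218), to 81.4% of the control mean. These calls rest on few libraries. Neither was made without control D or without any 1 library of shDDX41 #2, ELK4 was also lost without control B (edgeR adjusted p = 0.0941), and ELF4 with library size only as the scaling (edgeR adjusted p = 0.0665). Without library D of shDDX41 #1, both were called, and ETV6 as well, where 4248 of all 12902 tested genes were called. That library enters this contrast only through the shared spread, the filter and the scaling.

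ELK3 was at 15.3, 17.8 and 17.6 CPM in shDDX41 #2, just below the controls in every library, and its log2 fold change was -0.20 (95% interval -0.42 to 0.02, edgeR adjusted p = 0.179). ETS1 was at 6.92, 9.37 and 8.67 CPM, a range that overlapped the controls, and its log2 fold change was -0.30 (95% interval -0.66 to 0.05, edgeR adjusted p = 0.206). Both intervals exclude a fall of the size that these genes showed with shDDX41 #1. ETV6, at 84.0, 83.8 and 85.5 CPM, lay above every control with a log2 fold change of 0.18 (95% interval 0.03 to 0.33, edgeR adjusted p = 0.0681). GABPA, at 60.0, 59.5 and 60.4 CPM, lay just under the lowest control, with a log2 fold change of -0.07. ELF2 was at 77.4, 79.9 and 71.4 CPM, with a log2 fold change of -0.11. FLI1, at 86.5, 86.0 and 92.5 CPM, and ELF1, at 394, 419 and 408 CPM, had log2 fold changes of -0.02 and 0.05, and all 3 of these genes overlapped the controls.

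**Figure D3:**
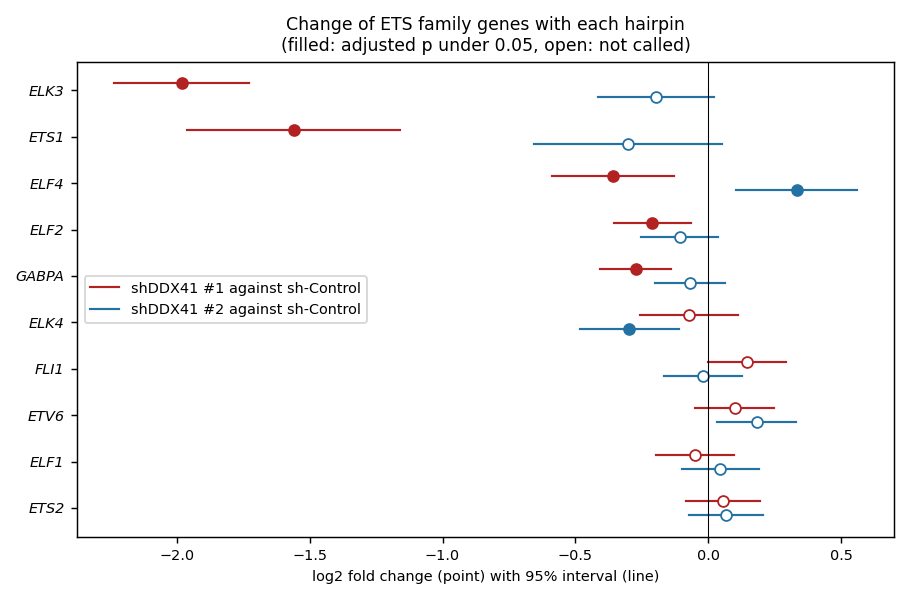
Log2 fold change against sh-Control with its 95% interval from the edgeR fit for the 10 members, shDDX41 #1 in red and shDDX41 #2 in blue, with filled points for genes called at an adjusted p under 0.05. ELK3 and ETS1 lie at -1.98 and -1.56 with shDDX41 #1 and at -0.20 and -0.30 with shDDX41 #2, and ELF4 lies on opposite sides of 0.

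The hairpins were then compared directly, which tests whether their effects on a gene differed. Lower with shDDX41 #1 were ELK3, ETS1, ELF4 and GABPA, and higher was ELK4, so that 5 of 10 members were called, against 48.8% of all tested genes (24.6% higher and 24.2% lower), and 5 members did not overlap, against 57.7% of all genes. ELK3 differed by -1.79 on the log2 scale (SE 0.119, edgeR adjusted p = 2.8e-08) and ETS1 by -1.26 (SE 0.191, edgeR adjusted p = 7.5e-05). ELF4, which moved in opposite directions with the hairpins, differed by -0.69 (SE 0.108, edgeR adjusted p = 9.5e-05). GABPA differed by -0.20 (SE 0.0628, edgeR adjusted p = 0.0143). ELK4 differed by 0.23 (SE 0.0881, edgeR adjusted p = 0.0455), a call made in 7 of 18 settings tried, against 18 of 18 for the other 4. With library size only or DESeq2 size factors 0 of 4 called members were higher, and with upper quartile factors 2 of 6. FLI1 at 0.17 (edgeR adjusted p = 0.0578), ELF2 at -0.10, ELF1 at -0.09, ETV6 at -0.08 and ETS2 at -0.01 were not called. Beside these differences, DDX41 itself was -1.79 on the log2 scale in shDDX41 #1 relative to shDDX41 #2, and with 1 hairpin at each level, the depth of knockdown and other effects of a hairpin cannot be told apart.

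Of the 18 other ETS family genes 9 passed the filter, and of these 55.6% were called with shDDX41 #1, 44.4% with shDDX41 #2 and 66.7% between the hairpins, against 47.8%, 25% and 48.8% of all genes. SPI1, the master regulator of monocytes, was at 251 ± 15.9 CPM in sh-Control, 250 ± 11.2 CPM in shDDX41 #1 and 240 ± 3.50 CPM in shDDX41 #2 (SD, n = 3), and it was called in no comparison. With shDDX41 #1 the family members ETV4, SPIB and ELK1 fell, by 1.10, 0.83 and 0.34 on the log2 scale, and ETV3 and ERF, both repressors, rose by 0.46 and 0.26. ERF, which is exported from the nucleus when ERK is active, was at 140, 125 and 132 CPM in sh-Control, at 159, 150 and 166 CPM in shDDX41 #1 and at 94.4, 87.1 and 105 CPM in shDDX41 #2. Its 3 groups did not overlap, and it rose with the first hairpin (edgeR adjusted p = 0.0109) and fell by 0.47 on the log2 scale with the second (edgeR adjusted p = 4.4e-04), the reverse of the order seen for ELF4. ETV4, a PEA3 factor, was the only ETS family gene tested that was called lower with both hairpins, by 1.10 (edgeR adjusted p = 6.4e-07) and by 0.34 (edgeR adjusted p = 0.0170) on the log2 scale. With shDDX41 #2 its relatives ETV5, at 0.28, and ETV1, at 1.36 from a control mean of 0.538 CPM, rose. ETV2, at 1.09 CPM in sh-Control, was not called. Directly between the hairpins, ETV1, SPIB, ETV4 and ELK1 were lower and ERF and ETV3 higher with shDDX41 #1.

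**Figure D4:**
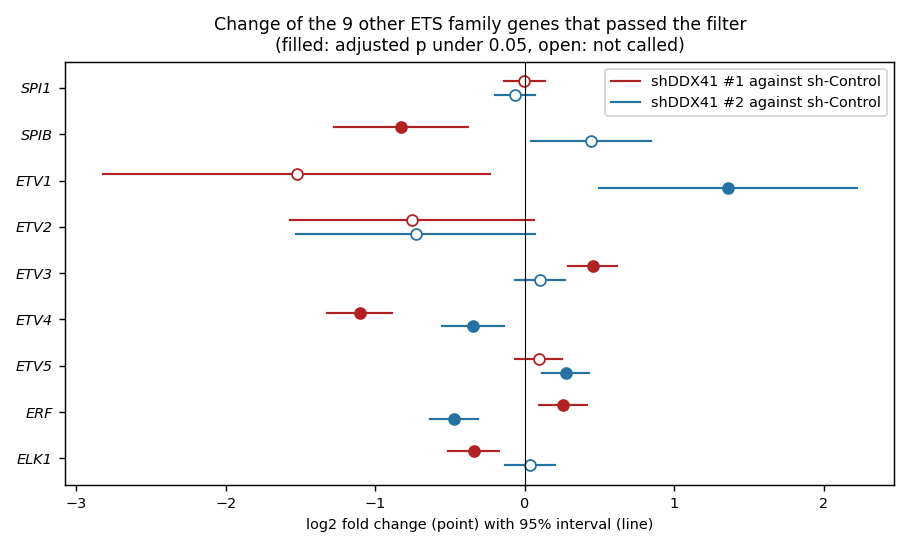
Log2 fold change against sh-Control with its 95% interval for the 9 ETS family genes outside the members that passed the filter, shDDX41 #1 in red and shDDX41 #2 in blue, filled where the adjusted p was under 0.05. ERF lies at 0.26 with shDDX41 #1 and at -0.47 with shDDX41 #2, ETV4 lies below 0 with both, and both intervals of SPI1 include 0.

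Proteins that act with the family were examined next. Of 12 binding partners and corepressors 11 were tested, and with shDDX41 #1 1 was higher and 3 lower, so that 36.4% were called, against 47.8% of all genes. CBFB, the partner of the RUNX factors that bind DNA beside ETS1, went from 119 to 59.1 CPM, a fold of 0.498 (edgeR adjusted p = 2.5e-08), and GATA2, which acts with FLI1 in blood progenitors, went from 51.8 to 18.4 CPM (-1.50, edgeR adjusted p = 4.9e-08). With shDDX41 #2 1 was higher and 3 lower (36.4%, against 25% of all genes), among them GATA2 at -1.14. GABPB2, a GABPA partner subunit, rose from 8.40 to 12.9 CPM, by 0.62 on the log2 scale (edgeR adjusted p = 0.0015). It was also the gene called higher with shDDX41 #1, by 0.46 (edgeR adjusted p = 0.0057), and was not called between the hairpins (edgeR adjusted p = 0.244). With shDDX41 #2 GABPB1, another partner subunit of GABPA with a higher level, fell from 59.3 to 48.9 CPM, by 0.28 on the log2 scale (edgeR adjusted p = 0.0093). Between the hairpins 2 were higher and 4 lower with shDDX41 #1 (54.5%, against 48.8%), led by CBFB at -0.98 and the deacetylase HDAC3 at -0.56. Among the ERK pathway kinases, MAPK3 fell with shDDX41 #1, by 0.36 on the log2 scale, and MAP2K2 rose by 0.17, a rise not called without library D of shDDX41 #1 or with library size only, whereas with shDDX41 #2 MAP2K2 fell by 0.89 (edgeR adjusted p = 5.3e-07) and MAPK3 by 0.35. Between the hairpins MAP2K2 was higher with shDDX41 #1, at 1.06 on the log2 scale. These are transcript levels, and phosphorylation was not measured.

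The list of known targets of SRF and the ternary complex factors held 9 genes. All 9 were tested, and with shDDX41 #1 4 were higher and 1 lower, so that 55.6% were called, against 47.8% of all genes, with a median log2 fold change of 0.54 against 0.01 over all genes. FOS, an immediate early gene, went from 37.6 ± 1.52 CPM to 84.2 ± 4.71 CPM (SD, n = 3), a log2 fold change of 1.16 (edgeR adjusted p = 3.7e-08), and EGR2 rose by 1.28. With shDDX41 #2 1 was higher and 2 lower (33.3%, against 25% of all genes), FOS rising by 0.38 (edgeR adjusted p = 0.0034) and JUNB falling by 0.42 on the log2 scale. Between the hairpins all 9 were called, 8 higher and 1 lower with shDDX41 #1, where 48.8% of all genes were called, among them EGR1 at 1.24 and FOS at 0.78. Control A was the highest control for every gene of this list, with FOSB at 141 CPM against 67.3 and 47.8 CPM. Without control A 7 genes were higher and 0 lower with shDDX41 #1, and 1 was called with shDDX41 #2, which was higher. Of all 12912 genes tested 5618 and 2942 were called there. The fall of JUNB with shDDX41 #2 was thus not called without control A. With upper quartile factors the called genes with shDDX41 #1 were 4 higher and 0 lower. SRF itself stands in this list and among the partners. A link between ELK3 or ELK4 and these genes was not tested.

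Of the 8 genes known to be driven by GABPA, 4 were lower and 0 higher with shDDX41 #1. The share called, 50%, was near that of all tested genes, of which 47.8% were called, 23.7% higher and 24.1% lower. With upper quartile factors 1 of 5 called genes was higher. PTPN11 fell by 0.79 on the log2 scale (edgeR adjusted p = 1.2e-07) and TFAM, the mitochondrial transcription factor, by 0.44 (edgeR adjusted p = 3.4e-05). With shDDX41 #2 UHMK1 rose by 0.29, and 2 genes fell (37.5% called, against 25% of all genes), among them TFB2M by 0.24 on the log2 scale. Between the hairpins 1 was higher and 4 lower with shDDX41 #1 (62.5%, against 48.8%), with PTPN11 at -0.76 and UHMK1 at -0.60. Of the 7 ETS1 and ETS2 targets 3 were tested. With shDDX41 #1 0 were called by edgeR, DESeq2 gave 0 and limma voom 0, and 1 had an unadjusted p under 0.05. PLAU, the urokinase gene, fell by 0.62 on the log2 scale with shDDX41 #2 (edgeR adjusted p = 2.0e-05) and was higher by 0.45 with shDDX41 #1 than with shDDX41 #2. None of the 8 platelet lineage targets of FLI1 passed the filter, and FLI1 was at 86.0 to 106 CPM in all libraries.

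The genes whose profile over the 9 libraries lay nearest to those of ELK3 and ETS1 were sought among 9833 genes with a mean of at least 5 CPM, by the root mean square difference of log2 CPM after centring each gene. Among the nearest to ELK3 were DSCC1 (0.141) and TRAM1 (0.148), with log2 fold changes of -2.07 and -1.68 with shDDX41 #1 and of -0.14 and -0.04 with shDDX41 #2. Nearest to ETS1 were POLQ (0.165), RRM2 (0.186) and NCAPG2 (0.199), with -1.49, -1.63 and -1.41 with shDDX41 #1 and -0.14, -0.20 and -0.16 with shDDX41 #2. DSCC1, POLQ and RRM2 have known roles in DNA replication or repair, NCAPG2 in chromosome condensation and TRAM1 in protein translocation. Library D of shDDX41 #1 was the lowest library for ETS1 and for each of its 3 nearest genes. These genes were picked on all 9 libraries, library D included, so this likeness is not a separate result.

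**Figure D5:**
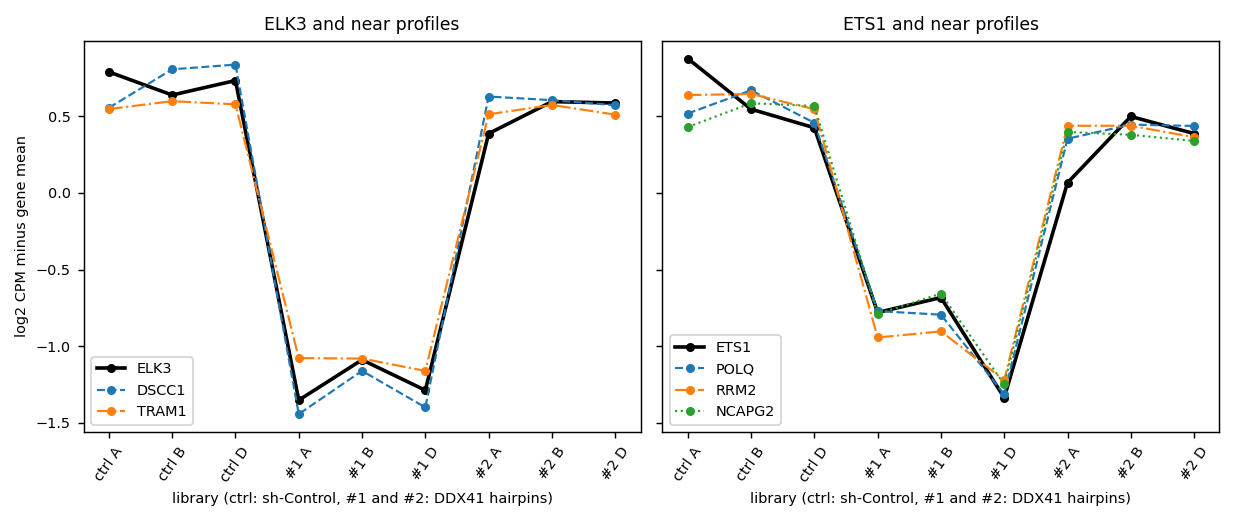
Log2 CPM minus the gene mean over the 9 libraries for ELK3 and ETS1 (black) and genes with a near profile to each (DSCC1 and TRAM1 for ELK3, and POLQ, RRM2 and NCAPG2 for ETS1, in colours), by library. In both panels the 3 shDDX41 #1 libraries lie below the 6 others.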

How the data were processed

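The authors sequenced poly(A)-selected libraries of 9 sorted MOLM13 samples. The values they deposited are raw read counts by gene symbol, with no scaling applied. The submitters' processing notes name FastQC 0.11.7, HISAT2 2.0.5 and featureCounts 1.5.2, and the builds hg38 and mm10 with no role given. Library kits are described differently in the labels (stranded) and in the methods. The members and gene lists were chosen with earlier results of these data known.

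Genes passing filterByExpr (minimum count 10) were fitted over all 9 libraries in edgeR 4.0.16 (R 4.3.3), with TMM scaling and quasi-likelihood tests, two-sided, and p-values were adjusted by Benjamini-Hochberg over 12712 genes within each contrast. A gene was called at an adjusted p under 0.05. SEs were derived from the F statistics, and CPM are TMM-scaled. Exact permutation tests of 3 against 3 libraries cannot go below p = 0.1 and were not used for calls. The scripts were tested on simulated data. The common biological coefficient of variation was 0.0768. Levels per length used the union of GENCODE v29 exons. Alternatives were DESeq2 1.42.0, limma voom 3.58.1, other scalings and filters, the 6 compared libraries alone, a replicate block and leaving out each library. All 10 members and every tested ETS family gene were named, with the 2 called genes of lowest adjusted p per other list and contrast, except items not reported here. ATP5J, GABPB1 and the myeloid markers called with shDDX41 #1 were named after their values were seen, as was the rise of GABPB2 with shDDX41 #1. The lists were also counted without library D of shDDX41 #1, without control A and under other scalings and tests, choices made after seeing the data.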

Additional observations from a re-analysis of the deposited data

Results flagged for a closer look

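The effect of the hairpins, each set against the same controls, differed for 5 of 10 members in the direct test between them (edgeR quasi-likelihood). In that comparison 48.8% of all tested genes were called, and for 57.7% the libraries of the hairpins did not overlap. The difference of shDDX41 #1 from shDDX41 #2 was -1.79 for ELK3, -1.26 for ETS1, -0.69 for ELF4, -0.20 for GABPA and 0.23 for ELK4 on the log2 scale, with edgeR adjusted p of 2.8e-08, 7.5e-05, 9.5e-05, 0.014 and 0.045. The call of ELK4 was made in 7 of 18 settings. For each of these 5 genes the 3 libraries of each hairpin did not overlap. The direction was opposite only for ELF4, which fell by 0.36 with shDDX41 #1 and rose by 0.33 with shDDX41 #2. The cause of these differences was not tested.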

How the results depend on the processing

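The calls of ETS1, ELK3 and GABPA with shDDX41 #1 and of ETS1, ELK3, ELF4 and GABPA between the hairpins were made in 18 of 18 settings. Over 540 values for the members, 495 kept direction and side of the threshold. Leaving out each library in turn gave 3 to 7 called members with shDDX41 #1 (5 with all libraries), 0 to 3 with shDDX41 #2 (2 with all) and 4 to 6 between the hairpins (5 with all). Over the same fits 5368 to 6256, 2054 to 4248 and 5169 to 6328 of all 12872 to 12928 tested genes were called. With library size only as the scaling, 1 member was called with shDDX41 #2, against 3114 of all 12712 genes. Upper quartile factors gave 6 called members with shDDX41 #1, against 6302 of all 12712 genes. The 9 changes of sign were all in members that were not called. With upper quartile factors the log2 fold change was 0.0253 for ELF1 and 0.0037 for ELK4 with shDDX41 #1, 0.0141 for FLI1 with shDDX41 #2 and 0.0299 for ETS2 between the hairpins. Leaving out each library gave -0.0907 to 0.0155 for ELF1, -0.1453 to 0.0236 for ELK4, -0.0546 to 6e-04 for FLI1 and -0.0533 to 0.0274 for ETS2. The cause was not tested. Libraries share only a letter across groups, with correlations of deviations from -0.0574 to 0.243. A fit with the replicate block gave 5, 2 and 5 called members, against 6351, 3570 and 6503 of all 12712 genes. Counts of 42 to 220 limit the precision for ETS1. Without library D of shDDX41 #1 the counts of called genes in the other lists stayed within 1.5 times.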
